A study of Mus musculus with 9 samples.

Results

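The genes described here are the mouse genes whose symbol is Zfp followed by a number and whose level averaged at least 2 CPM (a gene's read count scaled by its library's total) across 9 RNA-seq libraries. Zfp36, which codes for an RNA-binding protein of another zinc finger class, was left out. The count table listed 378 such symbols among its 45361 rows, and 266 reached the level. Of the other symbols, 65 had counts but stayed below it and 47 were at 0 in every library. The libraries came from CH12F3, a mouse B-lymphoma line, with a knockout of Ligase4, the enzyme that seals broken DNA ends in non-homologous end joining. All cultures, controls included, carried this knockout and received a 24 h stimulus of anti-CD40 together with IL-4 and TGF-β. On top of this stimulus 3 libraries were treated with tazemetostat, 3 with valemetostat and 3 with DMSO, the solvent. Tazemetostat inhibits EZH2, and valemetostat inhibits EZH2 and EZH1. These enzymes write the repressive histone mark H3K27me3. Dose, time of exposure to the inhibitors and the number of knockout clones are not given in the labels, nor do the labels say that replicates were separate cultures, so p-values measure only the spread between these libraries. The comparisons ask how each inhibitor changed transcript levels in these cells, and libraries without the knockout or without the stimulus were not among the groups.

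Most numbered Zfp genes code for C2H2 zinc finger proteins, in which each finger folds around a zinc ion held by cysteines and histidines, and a row of fingers reads a stretch of DNA or binds RNA. Many of them also carry a KRAB box. The KRAB box recruits TRIM28, which brings SETDB1, HP1 proteins and the NuRD complex and so deposits H3K9me3, a repressive mark distinct from the one EZH2 writes. KRAB genes sit in clusters of tandem copies, and many silence retroelements. Members without KRAB include activators, chromatin cofactors and proteins that act on RNA or ribosomes.

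The label held for nearly all members. A finger pattern (cysteines 2 to 4 residues apart, 12 residues, then histidines 3 to 5 residues apart) was found in 260 of the 264 members with a reading frame in the annotation used. The exceptions were Zfp330, Zfp703, Zfp781 and Zfp839, and Zfp783 and Zfp939 had no reading frame. The median member had 10 fingers, and the maximum was 36, in Zfp142. A KRAB pattern was found in 132 members, with a median of 12 fingers, and was not found in 132, with a median of 8 fingers. Below, KRAB members are those with the pattern. The others lack it in the longest reading frame, and some of them may still carry a KRAB box that the pattern missed. In gene order, 133 members lay in 23 clusters of at least 3 members, with neighbours at most 5 positions apart in the order of coding genes. Of these, 91 had the KRAB pattern and 42 did not. Chromosome 7 held 67 members, chromosome 17 held 32, chromosome 13 held 26 and chromosome 8 held 21.

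Members were mostly weakly expressed. Per transcript length, the median member had 6.73 TPM (the authors' level, scaled by transcript length and library) over the 9 libraries, with quartiles of 3.68 and 13.5 TPM and a range from 0.786 to 168.6 TPM. Only 16 members reached 30 TPM. The highest were Zfp706 at 168.6 TPM, Zfp207, a kinetochore and splicing factor, at 119.2 TPM, and Zfp106, an RNA-binding protein needed to maintain motor neurons in mice, at 115.2 TPM. Zfp362 followed at 80.9 TPM, the nucleolar protein gene Zfp330 at 66.6 TPM and Zfp622, a factor in maturation of the large ribosomal subunit, at 56.2 TPM. Just inside the level that defined membership were Zfp937, Zfp939 and Zfp786, at 2.06, 2.27 and 2.31 CPM. Just outside it were Zfp970, Zfp3 and Zfp708, at 1.81, 1.75 and 1.71 CPM.

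Library totals ran from 34080504 to 46675110 counts, so that 3 counts, the limit a count of 0 allows, came to between 0.0643 and 0.0880 CPM, for counting error only. Summed B cell markers reached 1215.6 to 1250.8 CPM with tazemetostat, 1248.7 to 1303.9 CPM with valemetostat and 1146.4 to 1158.7 CPM with DMSO. T cell markers summed to at most 0.927 CPM in any library, and 4 stromal, endothelial and epithelial markers to at most 2.54 CPM. The 3 myeloid markers summed to 21.8 to 24.7 CPM with tazemetostat, 20.9 to 24 CPM with valemetostat and 27.2 to 30.4 CPM with DMSO, nearly all of it Csf1r, which fell with both inhibitors (log2 fold changes of -0.41 and -0.46, edgeR adjusted p = 0.000332 and 8.99e-05). Lyz2 averaged 1.35 ± 0.126 CPM with tazemetostat, 1.31 ± 0.651 CPM with valemetostat and 0.0237 ± 0.0216 CPM with DMSO (SD, n = 3 each). The erythroid gene Hba-a1 averaged 5.55 ± 0.37 CPM with tazemetostat, 5.24 ± 0.21 CPM with valemetostat and 3.02 ± 0.0658 CPM with DMSO and rose with both inhibitors (log2 fold changes of 0.88 and 0.80, edgeR adjusted p = 7.56e-05 and 0.000236). The part of these markers in the values of the Zfp genes was not tested. In such bulk samples fewer cells of a type and less RNA per cell cannot be told apart. The libraries also differed in how level went with transcript length, before any grouping. Over all genes of at least 2 CPM, Spearman's rho between a gene's length and its deviation from its mean over the libraries was -0.02, -0.01 and -0.38 in the tazemetostat libraries, -0.22, -0.39 and -0.20 in the valemetostat libraries, and 0.25, 0.42 and 0.16 in the DMSO libraries. DMSO 2 stood apart toward long transcripts, and tazemetostat 3 and valemetostat 2 toward short ones.

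Taken as a family, the members made up a smaller part of the RNA with either inhibitor. They held 0.6528%, 0.6517% and 0.6298% of counts in the tazemetostat libraries, 0.6545%, 0.6347% and 0.6553% in the valemetostat libraries, and 0.7181%, 0.7346% and 0.6966% in the DMSO libraries. Every inhibitor library was below every DMSO library. Summed over members, the length-scaled level was 2996.7, 3039.3 and 2882.2 TPM with tazemetostat, 3092.5, 2894.5 and 3099.4 TPM with valemetostat, and 3307.8, 3541.8 and 3208.8 TPM with DMSO, with no overlap either.

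Each gene was tested with edgeR's quasi-likelihood test, with Benjamini-Hochberg adjustment over all 12580 genes tested, and is said to be called, or to have risen or fallen, where the adjusted p was under 0.05. All 266 members were tested. With tazemetostat 20 members rose, which is 7.52% of them, against 19.9% of all genes tested. With tazemetostat 66 members fell, which is 24.8%, against 18.2% of all genes tested and 20.9% of genes of at least 2 CPM. The members' median log2 fold change was -0.08, against 0.001 over all genes tested and -0.01 over all genes of at least 2 CPM. For 118 members the tazemetostat libraries lay apart from the DMSO libraries with no overlap, 40 of them higher and 78 lower with tazemetostat, and that held for 47.4% of all genes tested. Without DMSO 2 the number of members that fell with tazemetostat was 46. Limma on the deposited TPM gave 10 higher, 40 lower and a median of -0.136. That fit had no further scaling of libraries, and its shares and median over all genes are not given here. Its median is therefore not comparable with the edgeR medians over all genes.

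With valemetostat 25 members rose, which is 9.4%, against 20.5% of all genes tested. With valemetostat 60 members fell, which is 22.6%, against 18.7% of all genes tested and 21.4% of genes of at least 2 CPM. The median log2 fold change was -0.06, against 0.01 over all genes tested. The groups did not overlap for 108 members, 41 higher and 67 lower, against 48.5% of all genes tested. These counts leaned on single libraries. Without DMSO 1 the number of members that rose was 14, and without valemetostat 2 the number that fell was 38. Higher calls were 29.4% of the valemetostat calls, 40.5% (32 higher, 47 lower) where expected counts were corrected for transcript length and GC content, and 14.6% (6 higher, 35 lower) with limma on the deposited TPM, where the median was -0.135. Here too the limma values over all genes are not given.

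Changes were small. At 2-fold or more, 1 member was called with tazemetostat, against 6.41% of all genes tested, and 2 with valemetostat, against 6.45%. Among genes of at least 2 CPM, the level that members had to reach, the shares were 2.81% and 2.91%. Zfp608 was called with both inhibitors at that size and Zfp964 with valemetostat. The tazemetostat and valemetostat comparisons share the DMSO libraries and are therefore given side by side. With both inhibitors 14 members rose and 50 fell, and no member was called in opposite directions. Shared DMSO libraries favour calls in the same direction, so these counts are not independent agreement. The share of all genes called with both is not given here. Another 6 rose and 16 fell with tazemetostat alone passing the test, 11 rose and 10 fell with valemetostat alone passing it, and 159 passed with neither.

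Zfp608, reported in mouse thymocytes to repress the recombinase genes Rag1 and Rag2, had the largest rise with tazemetostat among members. It stood at 15.3, 17.2 and 15.1 CPM with tazemetostat, 16.3, 13.6 and 15.7 CPM with valemetostat, and 6.49, 8.76 and 7.32 CPM with DMSO. Every inhibitor library was well above every DMSO library. Its log2 fold change was 1.08 ± 0.12 (SE) with tazemetostat (edgeR adjusted p = 4.39e-08) and 1.02 ± 0.12 with valemetostat (edgeR adjusted p = 1.17e-07). Its close relative Zfp609, a partner of the cohesin loader NIPBL in mouse neural progenitors, moved the other way. Zfp609 stood at 96.5, 86.3 and 82.5 CPM with tazemetostat, 82.3, 76.7 and 82.0 CPM with valemetostat, and 115, 122 and 106 CPM with DMSO. The DMSO libraries were the highest. Its log2 fold change was -0.37 ± 0.06 with tazemetostat (edgeR adjusted p = 2.03e-05) and -0.51 ± 0.06 with valemetostat (edgeR adjusted p = 2.07e-07). Per transcript length, Zfp609 averaged 15.5 TPM and Zfp608 2.87 TPM over the 9 libraries, so the falling gene of the pair remained the more abundant one.

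**Figure D1:**
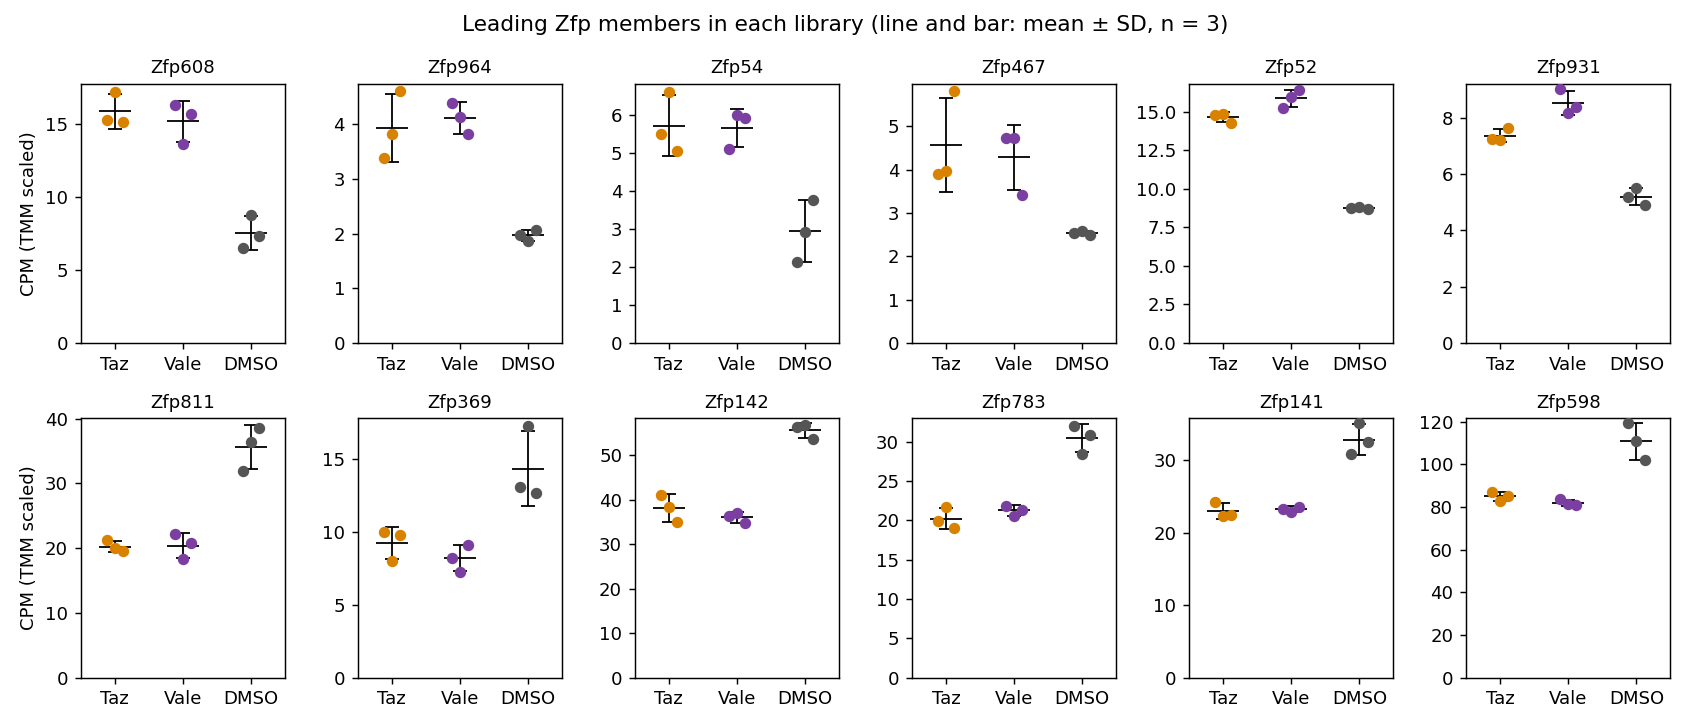
CPM (scaled by the trimmed mean of M values, linear axis from 0) of 12 members in each library, with tazemetostat (Taz), valemetostat (Vale) and DMSO from left to right, points for libraries, and the mean with its SD. In the upper row every inhibitor library lies above every DMSO library, as for Zfp52 at 14.3 to 16.4 CPM against 8.69 to 8.82 CPM, and in the lower row every inhibitor library lies below.

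Most other members that rose with both inhibitors were weakly expressed KRAB genes. Zfp964 stood at 3.39, 3.82 and 4.61 CPM with tazemetostat, 4.39, 4.14 and 3.82 CPM with valemetostat, and 1.98, 1.86 and 2.07 CPM with DMSO. Its log2 fold changes were 0.99 ± 0.195 (edgeR adjusted p = 0.000236) with tazemetostat and 1.06 ± 0.196 (edgeR adjusted p = 0.000109) with valemetostat. Its groups did not overlap, at levels near the threshold of membership. Zfp931 stood at 7.24, 7.22 and 7.64 CPM with tazemetostat, 9.01, 8.17 and 8.39 CPM with valemetostat, and 5.19, 5.51 and 4.91 CPM with DMSO. On the log2 scale its fold changes were 0.50 ± 0.13 (edgeR adjusted p = 0.00307) with tazemetostat and 0.71 ± 0.13 (edgeR adjusted p = 8.14e-05) with valemetostat. All 3 valemetostat libraries lay above all 3 tazemetostat libraries, which lay above DMSO. Its difference between valemetostat and tazemetostat was 0.21 on the log2 scale, with a 95% interval from -0.03 to 0.46, and was not called (edgeR adjusted p = 0.713).

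Zfp467, which has no KRAB pattern and is known in mouse marrow for shifting stromal precursors toward fat cells, stood at 3.89, 3.98 and 5.82 CPM with tazemetostat, 4.72, 4.72 and 3.41 CPM with valemetostat, and 2.53, 2.58 and 2.49 CPM with DMSO. The DMSO libraries were close together and the inhibitor libraries spread widely above them. The log2 fold changes came to 0.84 ± 0.20 (edgeR adjusted p = 0.00149) with tazemetostat and 0.76 ± 0.20 (edgeR adjusted p = 0.0037) with valemetostat. The tazemetostat call was lost with limma on TPM, at 0.36 (adjusted p = 0.253). Zfp449 rose by 0.65 ± 0.17 and 0.53 ± 0.17 on the log2 scale with tazemetostat and valemetostat (edgeR adjusted p = 0.00287 and 0.0133), and the valemetostat call was lost without valemetostat 2 at 0.44 (adjusted p = 0.0762), without DMSO 1 at 0.48 (adjusted p = 0.0533) or without DMSO 3 at 0.44 (adjusted p = 0.0658). Limma on TPM called neither, at 0.38 and 0.295 (adjusted p = 0.0727 and 0.145). Zfp710, named after its values were seen, rose by 0.42 ± 0.07 with tazemetostat (edgeR adjusted p = 4.84e-05) and by 0.26 ± 0.07 with valemetostat (edgeR adjusted p = 0.00572), the second lost without valemetostat 3 at 0.19 (adjusted p = 0.0557). Limma on TPM did not call its valemetostat rise, at 0.265 (adjusted p = 0.0764). Neither Zfp449 nor Zfp710 has the KRAB pattern.

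Among the deepest falls were those of the KRAB genes Zfp811 and Zfp369. As a class, KRAB members fell less often, at 15.2% and 10.6%, than members without the pattern, at 34.1% with each inhibitor. Zfp811 stood at 21.2, 19.96 and 19.6 CPM with tazemetostat, 22.1, 18.3 and 20.8 CPM with valemetostat, and 31.9, 36.3 and 38.6 CPM with DMSO. Each inhibitor library was below each DMSO library by a wide margin. Its log2 fold changes were -0.81 ± 0.08 (edgeR adjusted p = 2.24e-08) with tazemetostat and -0.80 ± 0.08 (edgeR adjusted p = 3e-08) with valemetostat. Zfp369, also known as NRIF2 for its tie to the neurotrophin receptor p75, stood at 9.98, 7.99 and 9.78 CPM with tazemetostat, 8.22, 7.27 and 9.07 CPM with valemetostat, and 13.1, 17.3 and 12.7 CPM with DMSO. The groups did not overlap, and DMSO 2 was the highest. On the log2 scale its fold changes were -0.63 ± 0.13 (edgeR adjusted p = 0.000371) with tazemetostat and -0.80 ± 0.13 (edgeR adjusted p = 2.33e-05) with valemetostat. Its paralog Zfp110 (NRIF), named after its values were seen, was not called, at -0.09 ± 0.07 (edgeR adjusted p = 0.313) and -0.08 ± 0.07 (edgeR adjusted p = 0.408).

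Zfp692 fell with valemetostat, at 7.96, 9.16 and 8.01 CPM, against 13.2, 11.8 and 10.7 CPM with DMSO, by 0.51 ± 0.12 on the log2 scale (edgeR adjusted p = 0.00116). With tazemetostat it was at -0.25 ± 0.12, not called (edgeR adjusted p = 0.0984).

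Zfp141 and Zfp783 fell alike. Zfp141, a KRAB gene, stood at 24.2, 22.2 and 22.4 CPM with tazemetostat, 23.3, 22.8 and 23.6 CPM with valemetostat, and 30.9, 35.1 and 32.5 CPM with DMSO. Zfp783 stood at 19.9, 21.6 and 19.0 CPM with tazemetostat, 21.9, 20.6 and 21.3 CPM with valemetostat, and 32.0, 28.5 and 30.9 CPM with DMSO. Neither gene's groups overlapped, and the inhibitor libraries were tightly grouped. Zfp141 fell by 0.515 ± 0.07 on the log2 scale with tazemetostat (edgeR adjusted p = 4.1e-06) and by 0.50 ± 0.07 with valemetostat (edgeR adjusted p = 6.69e-06). Zfp783 fell by 0.59 ± 0.08 with tazemetostat (edgeR adjusted p = 9.8e-07) and by 0.52 ± 0.08 with valemetostat (edgeR adjusted p = 6.62e-06). Zfp142, whose 36 fingers are the most of any member, stood at 41.1, 38.2 and 35.0 CPM with tazemetostat, 36.2, 37.1 and 34.6 CPM with valemetostat, and 56.2, 56.7 and 53.7 CPM with DMSO. It fell by 0.54 ± 0.065 with tazemetostat (edgeR adjusted p = 3.22e-07) and by 0.63 ± 0.07 with valemetostat (edgeR adjusted p = 3.19e-08). Several weakly expressed members named for the size of their fall lost the call when 1 library was left out. Among them, Zfp950 fell by 0.68 ± 0.20 with tazemetostat (edgeR adjusted p = 0.00751), and was at -0.52 without tazemetostat 3 (adjusted p = 0.0558). Zfp182 fell by 0.59 ± 0.17 with tazemetostat (edgeR adjusted p = 0.00918), and was at -0.495 without tazemetostat 1 (adjusted p = 0.0511). Zfp329 fell by 0.47 ± 0.15 with tazemetostat (edgeR adjusted p = 0.0166), lost without tazemetostat 3 (-0.35, adjusted p = 0.102), DMSO 1 (-0.43, adjusted p = 0.0594) or DMSO 2 (-0.43, adjusted p = 0.0608) and at 0.04, not called, with limma on TPM, and by 0.58 ± 0.15 with valemetostat (edgeR adjusted p = 0.00395), lost with limma on TPM at -0.455 (adjusted p = 0.067). Zfp937 and Zfp773 were called with tazemetostat at -0.66 and -0.57 (edgeR adjusted p = 0.0498 and 0.0393), and both calls were lost without tazemetostat 3 (-0.59 and -0.41, adjusted p = 0.129 and 0.178), DMSO 1 (-0.68 and -0.53, adjusted p = 0.0823 and 0.105) or DMSO 2 (-0.59 and -0.51, adjusted p = 0.138 and 0.121). Zfp937 also lost it without tazemetostat 2 (-0.52, adjusted p = 0.175) or DMSO 3 (-0.715, adjusted p = 0.0549), and Zfp773 without tazemetostat 1 (-0.58, adjusted p = 0.077). The calls of Zfp420, at -0.475 and -0.51 (edgeR adjusted p = 0.0456 and 0.0333), were lost without DMSO 1 (-0.48 and -0.51, adjusted p = 0.0874 and 0.0694) and without DMSO 2 (-0.45 and -0.48, adjusted p = 0.112 and 0.0898). The tazemetostat call of Zfp420 was also lost without tazemetostat 1 (-0.36, adjusted p = 0.185), tazemetostat 3 (-0.48, adjusted p = 0.0842) or DMSO 3 (-0.50, adjusted p = 0.0635), and its valemetostat call without valemetostat 3 (-0.37, adjusted p = 0.154).

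Among members with a known role on RNA or ribosomes, 9 were tested. With tazemetostat 5 were called, all of them falls, and with valemetostat 1 rose and 4 fell. Falls were thus 55.6% and 44.4% of this short list, against 18.2% and 18.7% of all genes tested. Zfp598 marks collided ribosomes with ubiquitin. It stood at 87.1, 82.8 and 85.2 CPM with tazemetostat, 83.6, 81.4 and 81.1 CPM with valemetostat, and 119.6, 111 and 102 CPM with DMSO. The DMSO libraries spread the most and still lay above all the others. It fell by 0.38 ± 0.05 with tazemetostat (edgeR adjusted p = 3.72e-06) and by 0.435 ± 0.055 with valemetostat (edgeR adjusted p = 5.56e-07). Zfp106, at 489, 497 and 462 CPM with tazemetostat, 471, 421 and 452 CPM with valemetostat, and 596, 618 and 559 CPM with DMSO, carried the most counts of any of these. It fell by 0.29 ± 0.05 with tazemetostat (edgeR adjusted p = 2.87e-05) and by 0.40 ± 0.05 with valemetostat (edgeR adjusted p = 2.87e-07). Its transcript is long, and with the length and GC correction the values were -0.15 (adjusted p = 0.000556) and -0.22 (adjusted p = 3.81e-06). Limma on TPM gave -0.29 with valemetostat, not called (adjusted p = 0.166). Zfp638, a nuclear RNA-binding protein, fell by 0.225 ± 0.05 and 0.25 ± 0.05 (edgeR adjusted p = 0.000566 and 0.000196), and with the length and GC correction neither was called, at -0.08 (adjusted p = 0.179) and -0.06 (adjusted p = 0.343). Zfp593, which acts in export of the large ribosomal subunit in yeast as its ortholog Bud20, was the member that rose with valemetostat, by 0.21 ± 0.07 (edgeR adjusted p = 0.0122), a call lost without DMSO 2 at 0.19 (adjusted p = 0.0594). Limma on TPM did not call this rise either, at 0.125 (adjusted p = 0.134). Zfp346, which binds double-stranded RNA, fell by 0.29 ± 0.085 and 0.30 ± 0.085 (edgeR adjusted p = 0.00912 and 0.00635). Without DMSO 2 both calls of Zfp346 were lost (-0.23 and -0.24, adjusted p = 0.0637 and 0.0513), as they were with limma on TPM (-0.32 and -0.09, adjusted p = 0.168 and 0.698), and the valemetostat call also without valemetostat 2 (-0.22, adjusted p = 0.0665). Zfp622 fell by 0.155 ± 0.06 with tazemetostat only just past the threshold (edgeR adjusted p = 0.0335), and the call was lost with the replicate block (adjusted p = 0.0533) and without any of 4 libraries, with values of -0.14 without tazemetostat 1 or 2, -0.10 without DMSO 1 and -0.15 without DMSO 3. Zfp207, Zfp326 and Zfp830 were called with neither.

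Chromatin and transcription cofactors numbered 14. With tazemetostat 7 were called, all of them falls, and with valemetostat 1 rose and 8 fell. Falls made up 50% and 57.1% of the list, against 18.2% and 18.7% of all genes tested. With the length and GC correction 6 fell with each inhibitor. The list's median transcript was 4784.5 nt. Among all genes over 4000 nt of at least 2 CPM, 36.1% and 39.7% fell. Zfp281, a DNA-binding partner of the NuRD complex in mouse embryonic stem cells, stood at 58.2, 60.9 and 60.02 CPM with tazemetostat, 62.3, 56.1 and 62.1 CPM with valemetostat, and 74.3, 76.02 and 74.96 CPM with DMSO. Its DMSO libraries were within a narrow band above the rest. It fell by 0.33 ± 0.055 with tazemetostat (edgeR adjusted p = 3.42e-05) and by 0.32 ± 0.06 with valemetostat (edgeR adjusted p = 5.49e-05). Zfp131, a BTB zinc finger factor, stood at 50.2, 48.3 and 48.9 CPM with tazemetostat, 49.2, 49.8 and 46.5 CPM with valemetostat, and 59.5, 61.7 and 67.3 CPM with DMSO. It fell by 0.35 ± 0.06 with tazemetostat (edgeR adjusted p = 4.22e-05) and by 0.37 ± 0.06 with valemetostat (edgeR adjusted p = 2.12e-05). Zfp410, known for driving transcription of the NuRD helicase gene Chd4 in erythroid cells, fell by 0.23 ± 0.06 and 0.26 ± 0.06 (edgeR adjusted p = 0.00438 and 0.00175), the tazemetostat call lost with limma on TPM at -0.18 (adjusted p = 0.154). Chd4 itself, named after its values were seen, was at -0.06 ± 0.04 with tazemetostat, not called (edgeR adjusted p = 0.33). It fell by 0.19 ± 0.04 with valemetostat (edgeR adjusted p = 0.00123), a call lost with the length and GC correction at -0.06 (adjusted p = 0.117).

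Zfp592 and Zfp687, which share a complex with ZMYND8, both fell. Zfp592 fell by 0.24 ± 0.06 with tazemetostat (edgeR adjusted p = 0.00308) and by 0.38 ± 0.06 with valemetostat (edgeR adjusted p = 2.2e-05). Zfp687 fell by 0.32 ± 0.07 with tazemetostat (edgeR adjusted p = 0.000702) and by 0.24 ± 0.07 with valemetostat (edgeR adjusted p = 0.00643). With limma on TPM, the tazemetostat call of Zfp687 was lost (-0.25, adjusted p = 0.0738), and so were both calls of Zfp592 (-0.32 and -0.46, adjusted p = 0.207 and 0.0771). Zfp451, a SUMO ligase with a transcript of 11876 nt, fell by 0.225 ± 0.06 and 0.215 ± 0.06 (edgeR adjusted p = 0.0033 and 0.00457), and with the length and GC correction it was at -0.03 (adjusted p = 0.7) and 0.03 (adjusted p = 0.734). Zfp217, an oncogenic corepressor partner, was the one that rose, by 0.14 ± 0.055 with valemetostat (edgeR adjusted p = 0.0498). That call was lost without valemetostat 1 at 0.09 (adjusted p = 0.265), without DMSO 1 at 0.14 (adjusted p = 0.0881) and without DMSO 3 at 0.12 (adjusted p = 0.13). It was also lost with RLE scaling, library totals, no filter, the replicate block and a fit of only the compared groups. Limma on TPM gave 0.05 (adjusted p = 0.692), not called. Zfp384 was not called with tazemetostat (-0.10 ± 0.06, edgeR adjusted p = 0.184) and fell by 0.27 ± 0.06 with valemetostat (edgeR adjusted p = 0.000912). Zfp827 was called at -0.345 and -0.30 (edgeR adjusted p = 0.0199 and 0.0398), and both calls were lost without DMSO 1 (-0.27 and -0.22, adjusted p = 0.0893 and 0.166) or DMSO 2 (-0.33 and -0.28, adjusted p = 0.0611 and 0.109). Its tazemetostat call was also lost without tazemetostat 3 (-0.24, adjusted p = 0.0973), and its valemetostat call without valemetostat 2 (-0.185, adjusted p = 0.199) or 3 (-0.35, adjusted p = 0.0526) and with the length and GC correction (-0.16, adjusted p = 0.176). Limma on TPM called neither (-0.28 and -0.26, adjusted p = 0.141 and 0.173). Zfp143, Zfp148, Zfp219, Zfp644 and Zfp825 were called with neither.

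Among 5 members known for lymphocyte functions, 1 rose and 1 fell with tazemetostat, and 1 was called with valemetostat, a fall. Each made up 20% of this short list. Over all genes tested, 19.9% rose and 18.2% fell with tazemetostat, and 18.7% fell with valemetostat. Zfp91, a ubiquitin ligase that stabilises the kinase NIK downstream of receptors such as CD40, stood at 107.9, 109.7 and 102.4 CPM with tazemetostat, 108, 105 and 111 CPM with valemetostat, and 125, 134 and 129 CPM with DMSO. All inhibitor libraries lay below all DMSO libraries. It fell by 0.28 ± 0.05 with tazemetostat (edgeR adjusted p = 5.12e-05) and by 0.26 ± 0.05 with valemetostat (edgeR adjusted p = 9.75e-05). Zfp423, which binds the B cell factor EBF1, rose by 0.295 ± 0.09 with tazemetostat (edgeR adjusted p = 0.0115), a call lost without tazemetostat 1 at 0.25 (adjusted p = 0.0603) and without DMSO 3 at 0.19 (adjusted p = 0.0915). Zfp318, which lets mature B cells splice through to IgD, had a transcript of 13060 nt. It stood at 40.6, 38.9 and 32.5 CPM with tazemetostat, 35.3, 33.6 and 34.2 CPM with valemetostat, and 34.5, 39.3 and 34.6 CPM with DMSO. Its groups overlapped, and it was not called, at 0.05 ± 0.08 (edgeR adjusted p = 0.642) and -0.07 ± 0.08 (edgeR adjusted p = 0.495). With the length and GC correction it was called higher, at 0.25 (adjusted p = 0.00171) and 0.19 (adjusted p = 0.0189). Zfp335 and Zfp35 were called with neither inhibitor.

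Of genes known for guarding imprints or silencing retroelements, 6 were tested, 5 of them members. With each inhibitor 2 were called, both of them falls, or 33.3% of the list, against 18.2% and 18.7% of all genes tested. Zfp445, which keeps imprints in mouse embryos together with Zfp57, stood at 78.9, 77.7 and 79.6 CPM with tazemetostat, 84.7, 86.7 and 82.3 CPM with valemetostat, and 101, 105 and 93.9 CPM with DMSO. It fell by 0.35 ± 0.05 with tazemetostat (edgeR adjusted p = 7.88e-06) and by 0.24 ± 0.05 with valemetostat (edgeR adjusted p = 0.000527). Zfp568, which silences a placental transcript of Igf2 in mouse embryos, stood at 29.0, 32.7 and 27.7 CPM with tazemetostat, 33.2, 29.2 and 32.8 CPM with valemetostat, and 41.0, 45.6 and 35.7 CPM with DMSO. In both genes the inhibitor libraries lay below the DMSO libraries without overlap. Zfp568 fell by 0.45 ± 0.08 with tazemetostat (edgeR adjusted p = 0.000127) and by 0.36 ± 0.08 with valemetostat (edgeR adjusted p = 0.00123), the second lost with limma on TPM at -0.43 (adjusted p = 0.0592). Zfp809, which silences murine leukemia proviruses, was not called at 0.13 ± 0.09 (edgeR adjusted p = 0.259) and 0.19 ± 0.09 (edgeR adjusted p = 0.0945). Zfp932 and Zfp961 were not called either.

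KRAB and other members differed in how many fell. Of the 132 KRAB members 14 were called higher and 20 lower with tazemetostat, and 13 higher and 14 lower with valemetostat. Higher calls were 10.6% and 9.85% of them and lower calls 15.2% and 10.6%, against 19.9% and 20.7% higher and 20.9% and 21.4% lower among all genes of at least 2 CPM. Their median log2 fold changes were -0.05 and -0.01. With the length and GC correction 18 KRAB members were higher and 17 lower with tazemetostat, and 16 higher and 10 lower with valemetostat, so that the balance of calls turned. Of all 10429 genes of at least 2 CPM, 2041 were then higher and 2216 lower with tazemetostat, and 2025 higher and 2255 lower with valemetostat. The correction was fitted over genes at large, and KRAB members had a weaker length trend before it, as given below. Of the 132 members without the KRAB pattern 6 were called higher and 45 lower with tazemetostat, and 12 higher and 45 lower with valemetostat. Their medians were -0.11 and -0.09. Lower calls were 34.1% of them with each inhibitor. With the correction those without the pattern had 10 higher and 42 lower, and 16 higher and 36 lower. These counts are a description and the difference between the classes was not tested. The classes also differed in level, at a median of 5.54 TPM for KRAB members and 10.1 TPM for the others. Their median transcript lengths were 3454.5 nt and 3687 nt.

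Fold changes went with transcript length. Members had transcripts of 1015 to 13215 nt, with a median of 3527.5 nt, against a median of 3094 nt over all genes of at least 2 CPM. The 23 members under 2000 nt had median log2 fold changes of 0.08 with tazemetostat and 0.09 with valemetostat, against 0.08 and 0.10 over all genes of that length and level. The 134 members of 2000 to 4000 nt had medians of -0.08 and -0.06, against -0.01 and 0.001 over all such genes. The 109 members over 4000 nt had medians of -0.165 and -0.10, against -0.10 and -0.11 over all such genes. Short and long members thus lay near other genes of their length with valemetostat, and those of middle length lay lower than other genes of their length with both inhibitors. Over 4000 nt, 12 members were called higher and 43 lower with tazemetostat, and 11 higher and 38 lower with valemetostat. As shares, 11% were higher and 39.4% lower with tazemetostat, against 14.3% and 36.1% of all genes of that length and level, and 10.1% higher and 34.9% lower with valemetostat, against 13.6% and 39.7%. With the length and GC correction 19 long members were higher and 30 lower with tazemetostat, and 20 higher and 23 lower with valemetostat. Their medians were then -0.06 and 0.02. Of 3503 genes of that length and level, 757 were then higher and 939 lower with tazemetostat, and 759 higher and 955 lower with valemetostat. The shortest members, Zfp688 (1015 nt), Zfp580 (1096 nt) and Zfp428 (1182 nt), and one of the longest, Zfp846 (12974 nt), were called with neither inhibitor.

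**Figure D2:**
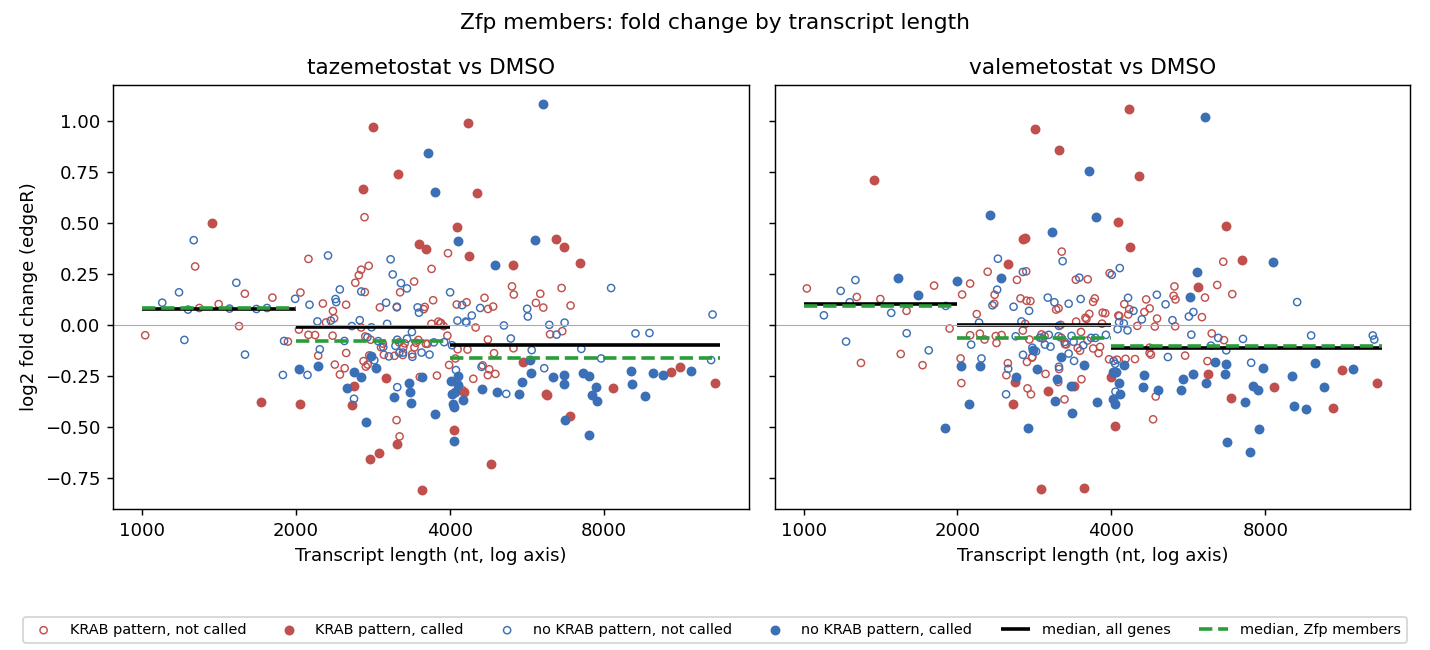
Log2 fold change of each member (points) against transcript length in nt (log axis), for tazemetostat against DMSO on the left and valemetostat against DMSO on the right, with medians of members (dashed) and of all genes of at least 2 CPM (solid) in 3 length classes. Zfp783 and Zfp939, which have no reading frame, are not drawn. Above 4000 nt the members' medians are -0.165 and -0.10 and those of all genes are -0.10 and -0.11.

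Across members Spearman's rho of log2 fold change with length was -0.19 with tazemetostat and -0.17 with valemetostat (n = 266). Without tazemetostat 3 the tazemetostat value was -0.12. Across all genes of at least 2 CPM it was -0.30 and -0.35 (n = 10413). Genes are not independent replicates, and all points of a comparison share the same 6 libraries. Across KRAB members rho was -0.06 and -0.03, and across members without the KRAB pattern -0.30 and -0.27 (n = 132 each). Among the 62 members without the pattern over 4000 nt 31 fell with tazemetostat and 30 fell with valemetostat. Among the 46 KRAB members over 4000 nt 11 and 7 fell. These falls were 50% and 48.4% of the long members without the pattern and 23.9% and 15.2% of the long KRAB members. Among all genes of that length and level, 36.1% and 39.7% fell. With the correction 23 and 18 of the long members without the pattern fell and 8 and 10 rose. Of the long KRAB members 6 and 4 then fell and 11 and 10 rose. With the length and GC correction rho over members was 0.05 and 0.13. Over KRAB members it was then 0.13 and 0.22, and over members without the pattern -0.01 and 0.07. Over all genes of at least 2 CPM it was then -0.01 with each inhibitor. The correction left 28 members higher and 60 lower with tazemetostat, of which 20 and 52 were the members called without it. Over all 12580 genes tested it left 2474 higher and 2329 lower with tazemetostat, and 2443 higher and 2386 lower with valemetostat. Members then had medians of -0.07 with tazemetostat and -0.04 with valemetostat, against -0.013 and -0.011 over all genes tested. With valemetostat 22 of the 25 higher calls and 44 of the 60 lower calls were kept. Most called members were thus called with and without it. Whether the length trend comes from the cells or from the RNA and library preparation was not tested.

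Single libraries carried this trend unevenly. Among members over 4000 nt, the median deviation from the mean of the 9 libraries on the log2 scale was -0.016, -0.014 and -0.101 with tazemetostat, -0.005, -0.057 and -0.011 with valemetostat, and 0.076, 0.149 and 0.036 with DMSO. All DMSO libraries were above all inhibitor libraries, and DMSO 2 and tazemetostat 3 were the extremes. Among members of 2000 to 4000 nt it was -0.045, -0.009 and -0.025 with tazemetostat, 0.005, -0.034 and 0.013 with valemetostat, and 0.039, 0.059 and 0.029 with DMSO. There the DMSO libraries again lay above the rest, while over all genes of that length no library was further than 0.015 from it.

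**Figure D3:**
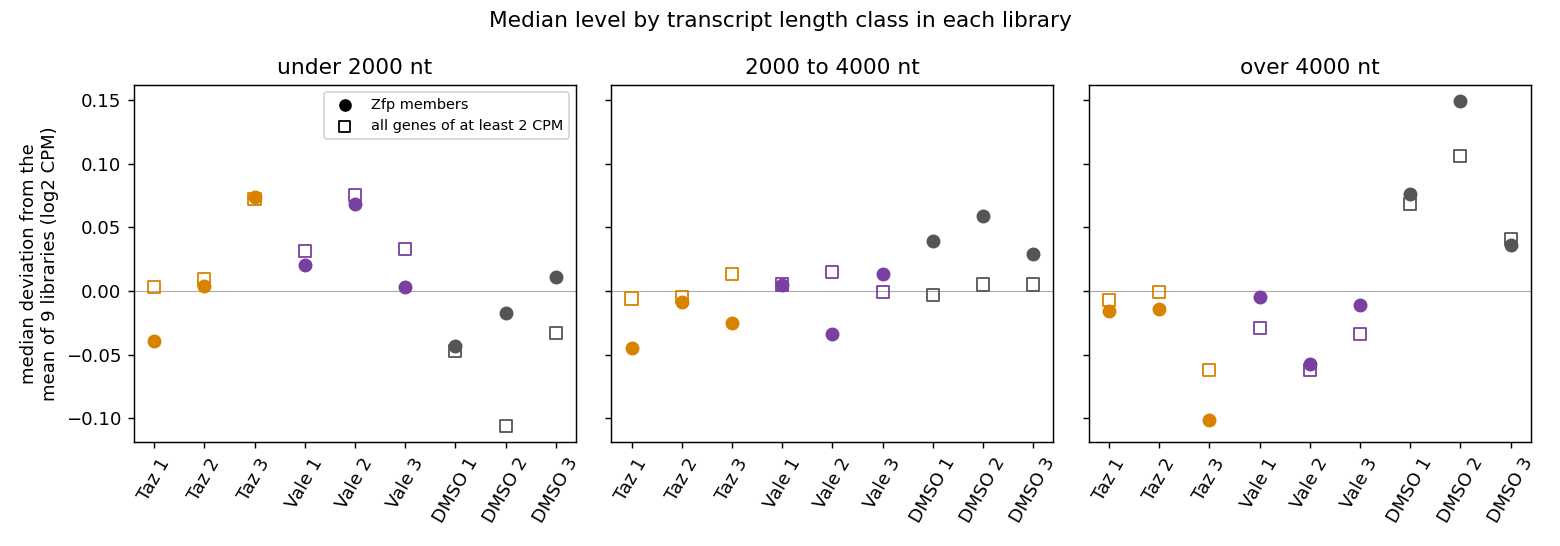
Median deviation from the mean of the 9 libraries (log2 CPM) in each library, for members (filled circles) and all genes of at least 2 CPM (open squares), in 3 classes of transcript length, with tazemetostat, valemetostat and DMSO from left to right. Over 4000 nt the inhibitor libraries lie at -0.101 to -0.005 for members, and the DMSO libraries at 0.036 to 0.149.

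Neighbouring members moved unequally. The cluster of 15 members on chromosome 17 from Zfp54 to Zfp213 held Zfp54, Zfp52 and Zfp229, which rose with both inhibitors. In that cluster 4 members rose and 1 fell with tazemetostat, and 5 were called with valemetostat, all of them rises. All the risers lay among the first members of the row, from Zfp54 to Zfp229, while the median of the cluster was -0.09 and -0.07. Zfp52 stood at 14.8, 14.9 and 14.3 CPM with tazemetostat, 15.3, 15.9 and 16.4 CPM with valemetostat, and 8.75, 8.82 and 8.69 CPM with DMSO. Its libraries agreed closely within each group, and its log2 fold changes were 0.74 ± 0.10 (edgeR adjusted p = 1.01e-06) with tazemetostat and 0.86 ± 0.10 (edgeR adjusted p = 9.56e-08) with valemetostat. Zfp54 stood at 5.5, 6.61 and 5.06 CPM with tazemetostat, 5.1, 6 and 5.93 CPM with valemetostat, and 2.13, 2.93 and 3.76 CPM with DMSO. The DMSO libraries spread widely below the others. On the log2 scale its fold changes were 0.97 ± 0.19 (edgeR adjusted p = 0.000174) and 0.96 ± 0.19 (edgeR adjusted p = 0.000208).

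Zfp229 stood at 4.63, 4.94 and 4.5 CPM with tazemetostat, 5.89, 4.2 and 4.76 CPM with valemetostat, and 3.1, 3.71 and 2.16 CPM with DMSO. It rose by 0.65 ± 0.19 with tazemetostat (edgeR adjusted p = 0.00915), lost without DMSO 3 at 0.47 (adjusted p = 0.0615), and by 0.73 ± 0.19 with valemetostat (edgeR adjusted p = 0.00368). Between them in the row, and named as neighbours after their values were seen, Zfp983 rose by 0.34 ± 0.12 and 0.38 ± 0.12 (edgeR adjusted p = 0.025 and 0.0117) and Zfp53 was at 0.32 ± 0.15, not called (edgeR adjusted p = 0.0914), with tazemetostat and rose by 0.46 ± 0.15 (edgeR adjusted p = 0.0166) with valemetostat. Zfp51, which lies next to Zfp54, was at -0.01 ± 0.12 and 0.09 ± 0.12 (edgeR adjusted p = 0.975 and 0.6). Without DMSO 1 Zfp983 was at 0.21 (adjusted p = 0.187) and 0.26 (adjusted p = 0.0995), and without DMSO 3 Zfp53 was at 0.40 with valemetostat (adjusted p = 0.0603), none of them called. Zfp983 also lost its tazemetostat call without tazemetostat 2 (0.33, adjusted p = 0.0638) or 3 (0.34, adjusted p = 0.0503) and its valemetostat call without valemetostat 1 (0.33, adjusted p = 0.0568) or 3 (0.33, adjusted p = 0.0613), and Zfp53 lost its call without valemetostat 1 (0.435, adjusted p = 0.0506). With limma on TPM none of the calls of Zfp229 (0.28 and 0.44), Zfp983 (0.14 and 0.30) and Zfp53 (0.26 with valemetostat) was made. Tandem copies share sequence, and the handling of reads that match several of them is not stated by the authors, so the levels of single genes in such a cluster are uncertain.

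**Figure D4:**
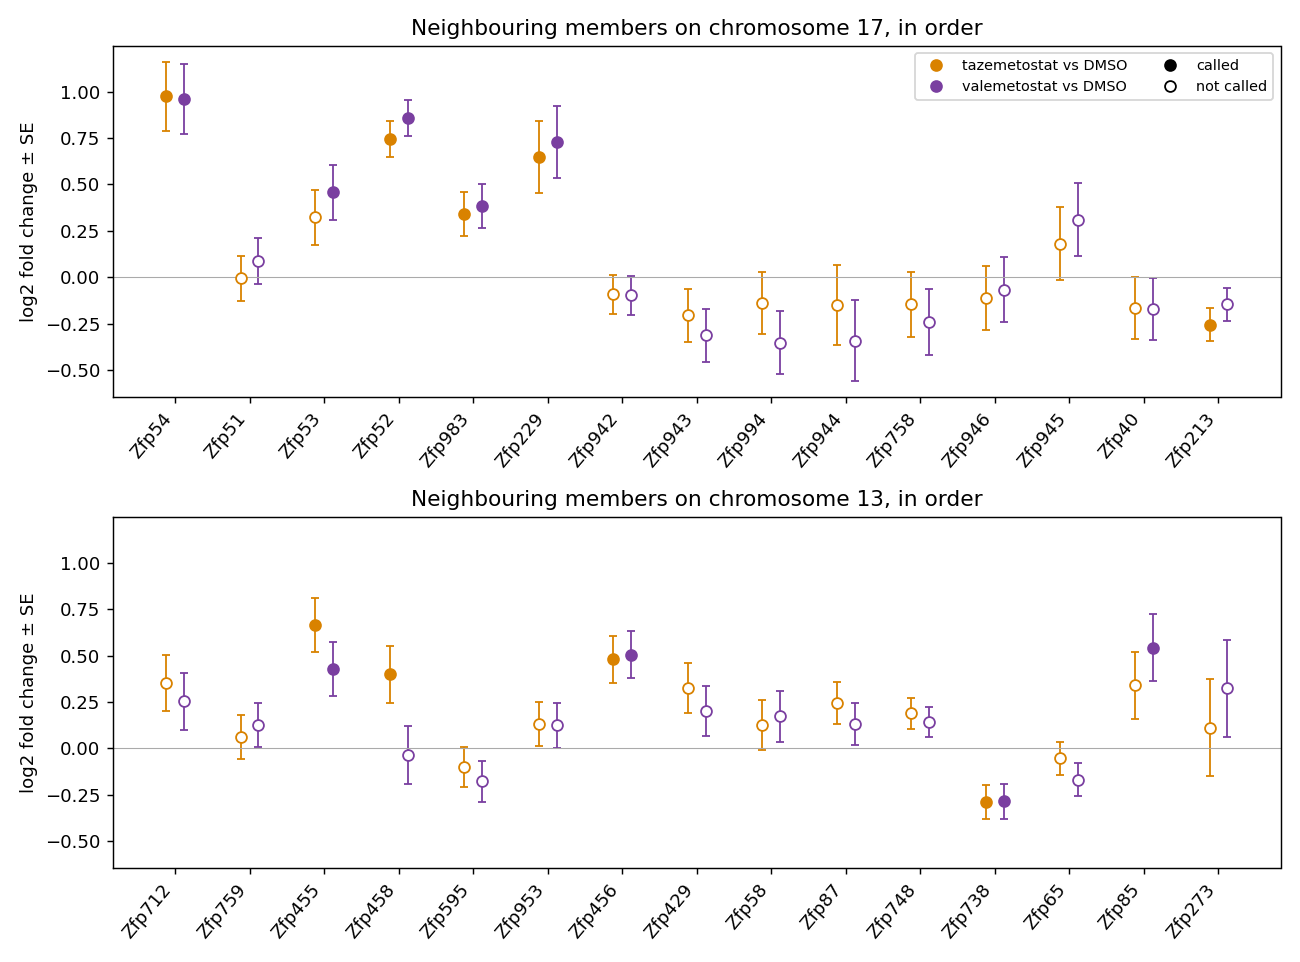
Log2 fold change with its SE for each member of the chromosome 17 cluster (top) and the chromosome 13 cluster (bottom), in gene order, for tazemetostat (left of each pair) and valemetostat against DMSO. Filled points passed the test. On chromosome 17 the risers lie from Zfp54 at 0.97 and 0.96 to Zfp229 at 0.65 and 0.73.

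The cluster of 15 members on chromosome 13 from Zfp712 to Zfp273 leaned upward more evenly. Its median was 0.19 with tazemetostat and 0.14 with valemetostat, 12 and 11 of its members had positive values, 3 rose with each inhibitor and 1 fell with each. Rises in 3 of 15 members are near the shares of all genes tested, which were 19.9% and 20.5%. Falls were 18.2% and 18.7% of all genes tested. Positive values were found in 6309 and 6418 of all 12580 genes. Zfp455 stood at 6.80, 7.01 and 6.52 CPM with tazemetostat, 5.21, 5.68 and 6.36 CPM with valemetostat, and 4.32, 3.92 and 4.57 CPM with DMSO. It rose by 0.67 ± 0.145 with tazemetostat (edgeR adjusted p = 0.000677) and by 0.43 ± 0.15 with valemetostat (edgeR adjusted p = 0.0222), the second lost without valemetostat 3 at 0.35 (adjusted p = 0.0947) and without DMSO 2 at 0.37 (adjusted p = 0.092). Zfp456 rose by 0.48 ± 0.13 and 0.51 ± 0.13 (edgeR adjusted p = 0.00388 and 0.00252). Limma on TPM did not call Zfp456, at 0.21 and 0.34, nor Zfp455 with valemetostat, at 0.24. The third riser differed between the inhibitors. With tazemetostat it was Zfp458, named after its values were seen, at 0.40 ± 0.155 (edgeR adjusted p = 0.0439). That call was lost without DMSO 3 at 0.30 (adjusted p = 0.167), without DMSO 2 at 0.42 (adjusted p = 0.0807), without tazemetostat 1, 2 or 3 in turn at 0.40, 0.42 and 0.385 (adjusted p = 0.0873, 0.0713 and 0.0961), with library totals, without a filter, with the replicate block (adjusted p = 0.0622) and with limma on TPM at 0.24 (adjusted p = 0.262). With valemetostat it was Zfp85, at 0.54 ± 0.18 (edgeR adjusted p = 0.0185), lost without valemetostat 2 at 0.465 (adjusted p = 0.0829) and without DMSO 1 at 0.51 (adjusted p = 0.0547), and at -0.03 with limma on TPM (adjusted p = 0.918). The member that fell was Zfp738, the longest of all members at 13215 nt, by 0.29 ± 0.09 with each inhibitor (edgeR adjusted p = 0.0156 and 0.0168), and with the length and GC correction it was at -0.06 (adjusted p = 0.629) and -0.002 (adjusted p = 0.987). Leaving out DMSO 3 also ended its calls, at -0.22 (adjusted p = 0.0892) and -0.21 (adjusted p = 0.1), as did leaving out DMSO 2, at -0.27 (adjusted p = 0.0557) and -0.26 (adjusted p = 0.0621). So did leaving out tazemetostat 1 (-0.27, adjusted p = 0.0574), tazemetostat 3 (-0.26, adjusted p = 0.0622) or valemetostat 2 (-0.27, adjusted p = 0.0562) for the inhibitor concerned. By contrast, the cluster of 14 members on chromosome 7 from Zfp84 to Zfp146, which holds Zfp568 and Zfp420, had 4 called with each inhibitor, all of them falls. Of all genes tested, 18.2% and 18.7% fell.

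Promoter windows of some of these members are shown because risers and fallers differed in CG content, the dinucleotide that makes up CpG islands, where EZH2 acts in many cell types. Each window runs from 250 bases before to 50 bases after a transcription start in RefSeq, on build GRCm38.p6, and is written 5′ to 3′ with CG in capitals. They were chosen after the values were seen. Zfp54 (chr17:21422977-21423276, plus strand, 8 CG), Zfp52 (chr17:21535289-21535588, plus strand, 5 CG) and Zfp931 (chr2:178078376-178078675, minus strand, 3 CG) rose with both inhibitors. Zfp598 (chr17:24669437-24669736, plus strand, 29 CG) and Zfp131 (chr13:119790683-119790982, minus strand, 36 CG) fell with both.
Zfp54: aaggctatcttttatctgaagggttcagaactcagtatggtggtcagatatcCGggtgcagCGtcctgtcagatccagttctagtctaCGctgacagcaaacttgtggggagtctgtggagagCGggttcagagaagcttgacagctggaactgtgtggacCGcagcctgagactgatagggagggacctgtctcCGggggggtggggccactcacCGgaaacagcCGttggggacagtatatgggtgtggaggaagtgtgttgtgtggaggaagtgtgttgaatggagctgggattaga
Zfp52: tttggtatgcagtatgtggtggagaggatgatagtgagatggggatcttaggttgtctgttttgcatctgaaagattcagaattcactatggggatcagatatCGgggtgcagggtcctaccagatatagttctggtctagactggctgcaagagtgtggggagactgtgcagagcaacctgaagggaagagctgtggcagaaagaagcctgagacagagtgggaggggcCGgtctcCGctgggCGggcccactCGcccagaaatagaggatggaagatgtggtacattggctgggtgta
Zfp931: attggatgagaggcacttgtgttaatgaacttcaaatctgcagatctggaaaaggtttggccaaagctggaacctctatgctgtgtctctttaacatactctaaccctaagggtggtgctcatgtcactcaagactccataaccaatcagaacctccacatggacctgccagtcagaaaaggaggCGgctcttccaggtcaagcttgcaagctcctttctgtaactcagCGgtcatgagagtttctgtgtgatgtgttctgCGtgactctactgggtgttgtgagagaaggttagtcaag
Zfp598: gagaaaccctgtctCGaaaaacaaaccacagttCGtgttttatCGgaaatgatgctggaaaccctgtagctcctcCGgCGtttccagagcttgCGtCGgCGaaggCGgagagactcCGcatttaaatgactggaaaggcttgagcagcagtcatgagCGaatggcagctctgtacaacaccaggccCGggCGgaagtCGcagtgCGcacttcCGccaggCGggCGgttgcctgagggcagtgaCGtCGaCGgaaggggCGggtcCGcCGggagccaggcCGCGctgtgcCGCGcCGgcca
Zfp131: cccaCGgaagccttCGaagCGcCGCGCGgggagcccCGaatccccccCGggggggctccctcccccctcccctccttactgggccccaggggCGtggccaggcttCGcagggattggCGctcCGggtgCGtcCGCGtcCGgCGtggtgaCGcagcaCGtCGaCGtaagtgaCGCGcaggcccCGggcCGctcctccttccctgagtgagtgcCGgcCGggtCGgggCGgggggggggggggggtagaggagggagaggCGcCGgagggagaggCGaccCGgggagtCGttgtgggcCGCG
The first 3 windows hold scattered CGs, and the last 2 are packed with them. The last 2, at 29 and 36 CG, lie above the median of 19 among fallers with a window. The first 3 genes have the KRAB pattern and the last 2 do not. Of all members 223 had a window, with a median of 15 CG, against 22 for the 8275 windows of genes of at least 2 CPM and 7 for all 27025 windows. At least 10 CG were found in 69.1% of member windows, in 85.7% of those of genes of at least 2 CPM and in 43.9% of all. The CG pair reads the same on both strands. Among members that rose with both inhibitors 12 had a window, with a median of 8 CG, and 3 of them (25%) held at least 10. Among members that fell with both 39 had a window, with a median of 19 CG, and 32 of them (82.1%) held at least 10. The 172 other members had a median of 14 CG. KRAB members had a median of 11 CG and the others 18, and all the risers with a window except Zfp467 and Zfp710 had the KRAB pattern, so the CG count and the class moved together here. Exceptions ran both ways, as Zfp964 rose with 24 CG and Zfp811 fell with 5. These counts describe the windows and were not tested.

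**Figure D5:**
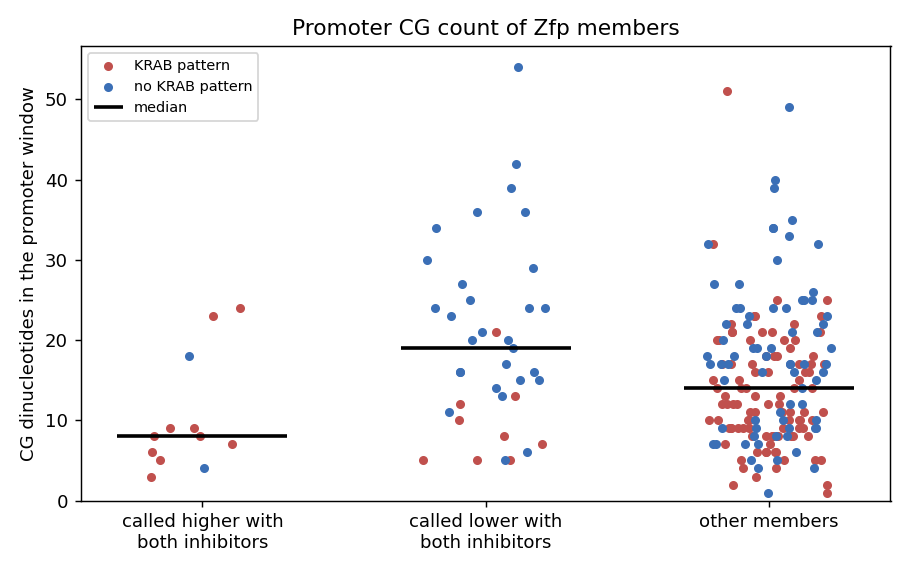
Number of CG dinucleotides in the 300-base RefSeq promoter window of each member (points, spread sideways at random), for members called higher with both inhibitors, called lower with both, and the others, with medians of 8, 19 and 14 (lines). Zfp783 and Zfp939 are left out of the points.

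Valemetostat and tazemetostat could not be told apart on any member. Against tazemetostat 0 members were called higher with valemetostat and 0 lower (edgeR and DESeq2), against 0.0636% and 0.254% of all genes tested, and 19 had an unadjusted p under 0.05. The median log2 difference was 0.01, and the largest in size was 0.50. The 95% interval lay within 0.5 of 0 for 235 of the 266 members and within 1 for 265. The smallest edgeR adjusted p was 0.243, for Zfp553, named after its values were seen. Zfp553 stood at 25.9, 31.0 and 25.5 CPM with valemetostat and 21.7, 22.4 and 24.0 CPM with tazemetostat, a log2 difference of 0.28 ± 0.08. A difference up to the size of these intervals is not detectable at this depth and number of libraries.

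None of the co-repressor genes through which KRAB proteins act passed 2-fold. Of 26 tested, 5 were called higher and 9 lower with tazemetostat, and 3 higher and 11 lower with valemetostat, with medians of -0.09 and -0.11. These are 19.2% higher and 34.6% lower with tazemetostat, against 19.9% and 18.2% of all genes tested, and 11.5% higher and 42.3% lower with valemetostat, against 20.5% and 18.7%. With the length and GC correction 8 and 7 were lower. Named after their values were seen, Trim28 averaged 895 ± 24.8 CPM with tazemetostat, 863 ± 24.3 CPM with valemetostat and 813 ± 5.46 CPM with DMSO (SD, n = 3 each). It rose by 0.14 ± 0.04 with tazemetostat (edgeR adjusted p = 0.00854), which limma on TPM did not call at 0.04 (adjusted p = 0.571), and was not called with valemetostat (0.09 ± 0.04, edgeR adjusted p = 0.0978). Setdb1 averaged 136 ± 3.86 CPM with tazemetostat, 137 ± 3.78 CPM with valemetostat and 153 ± 4.26 CPM with DMSO and fell by 0.17 ± 0.045 and by 0.155 ± 0.045 (edgeR adjusted p = 0.00391 and 0.008), the second lost without DMSO 2 at -0.13 (adjusted p = 0.052). The deacetylase gene Hdac2 moved furthest of these 3, at 199 ± 0.98 CPM with tazemetostat, 192 ± 6.48 CPM with valemetostat and 141 ± 4.33 CPM with DMSO, rising by 0.50 ± 0.04 and 0.45 ± 0.04 (edgeR adjusted p = 1.27e-09 and 8.95e-09). Of the related families, 38 Zbtb genes had 3 that rose with each inhibitor and 10 and 11 that fell. The falls were 26.3% and 28.9% of them, against 18.2% and 18.7% of all genes tested. The median Zbtb transcript was 4971 nt. Among all genes over 4000 nt of at least 2 CPM, 36.1% and 39.7% fell. With the length and GC correction 6 Zbtb genes fell with each inhibitor. Of 18 Zscan and Zkscan genes 0 were called with either inhibitor by edgeR or DESeq2, with 4 and 1 at an unadjusted p under 0.05 for tazemetostat and valemetostat.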

How the data were processed

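Counts per gene and log2 values were deposited by the authors, and the log2 values are, as the file's numbers show, log2(TPM + 1). Per the submitters' processing notes the build was mm9. Aligner and counter: not given in the sources used here. Counts of the 9 libraries were analysed with edgeR 4.0.16 in R 4.3.3: TMM scaling, genes kept by filterByExpr (minimum count 10, minimum total 15), 1 robust quasi-likelihood fit over the 3 groups of 3, Benjamini-Hochberg adjustment over 12580 genes, and calls under 0.05. CPM values per library are TMM-scaled, and membership used unscaled CPM. DESeq2 1.42.0, RLE scaling, library totals, other filters, limma 3.58.1 on the deposited log2 values (pseudocount 1), fits with a length and GC offset (a spline of 5 degrees of freedom), a replicate block and fits without each library were the alternatives. Every pair of replicates differed by more than sampling noise. Members and gene lists were chosen with earlier results of these data known. Genes named were, per inhibitor, the 10 largest non-overlapping calls each way, calls of 2-fold, the 6 highest by TPM, members of role lists, those at the threshold and the 3 shortest and longest, with others marked where named or given as the ends of clusters and ranges, and those called with neither inhibitor are mostly named without values. Lengths, reading frames and gene order came from the GENCODE M21 annotation. Fingers and KRAB boxes were counted in the longest reading frame of coding transcripts, because no table of proteins was given, and the finger pattern was loosened after the data were seen. Promoters came from RefSeq. The fit was tested on simulated data.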

Additional observations from a re-analysis of the deposited data

How the results depend on the processing

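RLE scaling, library totals, DESeq2, both other filters, fits of only the compared groups and other membership thresholds kept every count of members called, and the medians against DMSO, within 1.5 times of the values reported. The median between the inhibitors, 0.012, was 0.022 with library totals. Limma on the deposited log2(TPM + 1) gave 10 higher and 40 lower with a median of -0.136 for tazemetostat, and 6 higher and 35 lower with a median of -0.135 for valemetostat. Without the values over all genes in that setting, a shift of all genes cannot be told from a shift of the members. The length and GC offset turned rho with length to 0.05 and 0.13. Without each library in turn, valemetostat calls ranged from 14 to 23 higher and from 38 to 55 lower. Of the 86 tazemetostat calls 30 held in every alternative and 48 whichever library was left out, and of the 85 valemetostat calls 27 and 40.

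Signs turned under the offset, alone and with the replicate block, for Zfp148 (0.123 and 0.123 with tazemetostat, 0.159 and 0.160 with valemetostat), Zfp318 (0.186 and 0.186) and Zfp451 (0.030 and 0.029) with valemetostat, and with both for Zfp738 (0.001 with valemetostat). They turned under limma for Zfp329 with tazemetostat (0.041) and Zfp85 with valemetostat (-0.033). The cause was not tested.

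Same-numbered libraries did not deviate together (correlations of -0.04 to 0.076), so the numbers were not taken as pairs. With a replicate block 19 members were higher and 60 lower with tazemetostat, 23 higher and 55 lower with valemetostat, and 0 differed between the inhibitors, where DESeq2 also called 0 and 19 had an unadjusted p under 0.05. At the members' depth the median 95% interval reached 0.194 either side of a tazemetostat log2 fold change.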

Other observations

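The deposited TPM and the counts disagreed for some members. The ratio of TPM to CPM should stay constant for a gene whose transcripts keep 1 length, yet it differed at least 2-fold between libraries for 15 members and at least 3-fold for 1. That member was Zfp950, which ran from 1.26 to 54.3 TPM while its level by counts ran from 2.33 to 5.61 CPM, with the highest TPM in valemetostat 3. Zfp260 followed, at 3.37 to 8.52 TPM and 9.17 to 11.9 CPM, and then Zfp467, at 1.94 to 6.24 TPM and 2.49 to 5.82 CPM. Which transcripts the TPM values used was not tested.

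Below the membership level 30 Zfp symbols were still tested. With tazemetostat 1 of them rose and 2 fell, and with valemetostat 1 rose and 1 fell. Among all genes tested, 19.9% rose and 18.2% fell with tazemetostat, and 20.5% and 18.7% with valemetostat. Shares for other genes at such a low level are not given here. By finger number, the 38 members with 2 to 5 fingers had no rise and 16 falls called with tazemetostat, and 2 rises and 16 falls with valemetostat. Falls were 42.1% of that class with each inhibitor, against 20.9% and 21.4% of all genes of at least 2 CPM. With the length and GC correction the class had 3 rises and 16 falls, and 4 rises and 17 falls. The 129 members with 11 or more fingers had 13 rises and 26 falls with tazemetostat, and 11 rises and 23 falls with valemetostat. Their rises were 10.1% and 8.53% of the class, against 19.9% and 20.7% of all genes of at least 2 CPM. Their falls were 20.2% and 17.8%. With the length and GC correction they had 17 rises and 22 falls, and 17 rises and 14 falls. The 2 classes were not tested against each other, and their median transcripts were 3255 nt and 3711 nt. They also differed in level, at medians of 16.5 TPM and 5.43 TPM.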
